A study of Arabidopsis thaliana with 8 samples.

Results

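The PRA1 (prenylated Rab acceptor 1) family was read on 8 ATH1 arrays of developing Arabidopsis thaliana leaves, accession Col-0. Members were the genes whose current symbol begins with PRA1 and a dot or letter, read by a probe set that names 1 gene, with a mean signal of at least 20 array units over all 8 arrays. There were 8 such genes among the 8425 genes tested: PRA1.A1, PRA1.B1, PRA1.B4, PRA1.B6, PRA1.E, PRA1.F1, PRA1.G2 and PRA1.H. The letter after the dot gives the subclade, so subclade B had 3 members and subclades A, E, F, G and H had 1 each. PRA1.G1 was the 1 named gene that missed the signal limit. Its mean signal was 13.6 units, and that of PRA1.F1, the dimmest member, was 27.0 units.

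The RefSeq gene table lists 19 PRA1 genes, 16 under a PRA1 symbol and 3 under another. PRA7 and PRA8, whose synonyms are PRA1.F2 and PRA1.F3, are 2 of those 3 and are given beside the members as relatives. The other 8 genes, PRA1.A2, PRA1.A3, PRA1.B2, PRA1.B3, PRA1.B5, PRA1.C, PRA1.F4 and MPI7 (synonym PRA1.D), have no probe set of their own in the tables used and were not analysed here. For PRA1.F4 the tables hold 2 probe sets, but both also name AT3G13700.

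PRA1 proteins are small membrane proteins of the endoplasmic reticulum, Golgi and endosomes. In animals and yeast they bind Rab GTPases that carry a prenyl lipid, and they are thought to help release these GTPases from the GDP dissociation inhibitor so that they can enter a membrane. Rab GTPases mark transport vesicles and direct them to the right membrane. In plants the family has expanded into subclades named by letters. In Arabidopsis, PRA1.B6 is a Golgi protein, and extra PRA1.B6 slows the transport of some cargo proteins out of the endoplasmic reticulum.

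In the elevated group (4 arrays) the plants had been raised in elevated CO2, and the not-elevated group (4 arrays) carries no such label. The label of elevated replicate 1 gives 750 ppm and 24 h of adjustment in a cuvette, and for elevated replicate 4 the word elevated stands alone, with no gas named. The tissue was leaf insertions 19 to 21, harvested at 0 h, from plants kept at 20 °C with 50% humidity and 10 h of light. The general growth text calls the atmosphere normal for all 8 samples, and the title code of not-elevated replicate 1 is not that of its 3 companions, so the difference without that array is given for each gene.

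Arrays were similar in signal. Between 66.1% and 69.6% of probe sets per array reached 20 units, and Pearson's r between 2 arrays ranged from 0.974 to 0.987, taken over probe sets and so not over independent replicates. RCA, the Rubisco activase gene of green tissue, was the 1 leaf marker of 8 with a probe set of its own. It read 3157 to 3700 units in elevated arrays, against 2333 to 3434 units in not-elevated arrays. PYK10, a root beta-glucosidase gene, was the 1 root marker of 4 so matched, and read 16.3 to 38.4 units in elevated arrays and 20.8 to 25.7 units in not-elevated arrays. The flower, epidermis and vascular markers had no match. Whether replicates were separate plants is not in the labels, so the p-values cover the spread among these samples, part or all of which may be technical.

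No PRA1 member passed the test between the groups. With limma over all 15296 tested probe sets, 0 of the 8 members reached an adjusted p of 0.05, where 0.314% of all tested probe sets did. The members' adjusted p-values ran from 0.443 to 0.999. At an unadjusted p under 0.05 there was 1 member, PRA1.B6, where 11.1% of all tested probe sets lay under that value. The fitted log2 difference, elevated minus not elevated on the log2(signal + 10) scale, was above 0 in 5 of the 8 members, where 50.4% of all tested probe sets were above 0. Its median was 0.11 over the members and 0.0013 over all tested probe sets. In leaf tissue, fewer cells of a type and less RNA per cell cannot be told apart in such values.

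That median depended on single arrays. Without not-elevated replicate 4, the array with the lowest signal of PRA1.A1, PRA1.F1 and PRA1.G2, it was 0.055. Without not-elevated replicate 1 it was 0.11, with 7 of 8 members above 0, and without both replicate 1 arrays it was 0.11, with 8 of 8 above 0. Without elevated replicate 4, whose label names no gas, the median was 0.097, with 5 of 8 members above 0. That fit gave 0.065 for PRA1.A1, -0.0081 for PRA1.B1, 0.17 for PRA1.B4 and 0.25 for PRA1.B6. It gave 0.20 for PRA1.E, 0.13 for PRA1.F1, -0.0030 for PRA1.G2 and -0.18 for PRA1.H. For the relatives PRA7 and PRA8 the differences were 0.068 and 0.11. None of the 8 members passed the threshold in any of these fits.

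**Figure D1:**
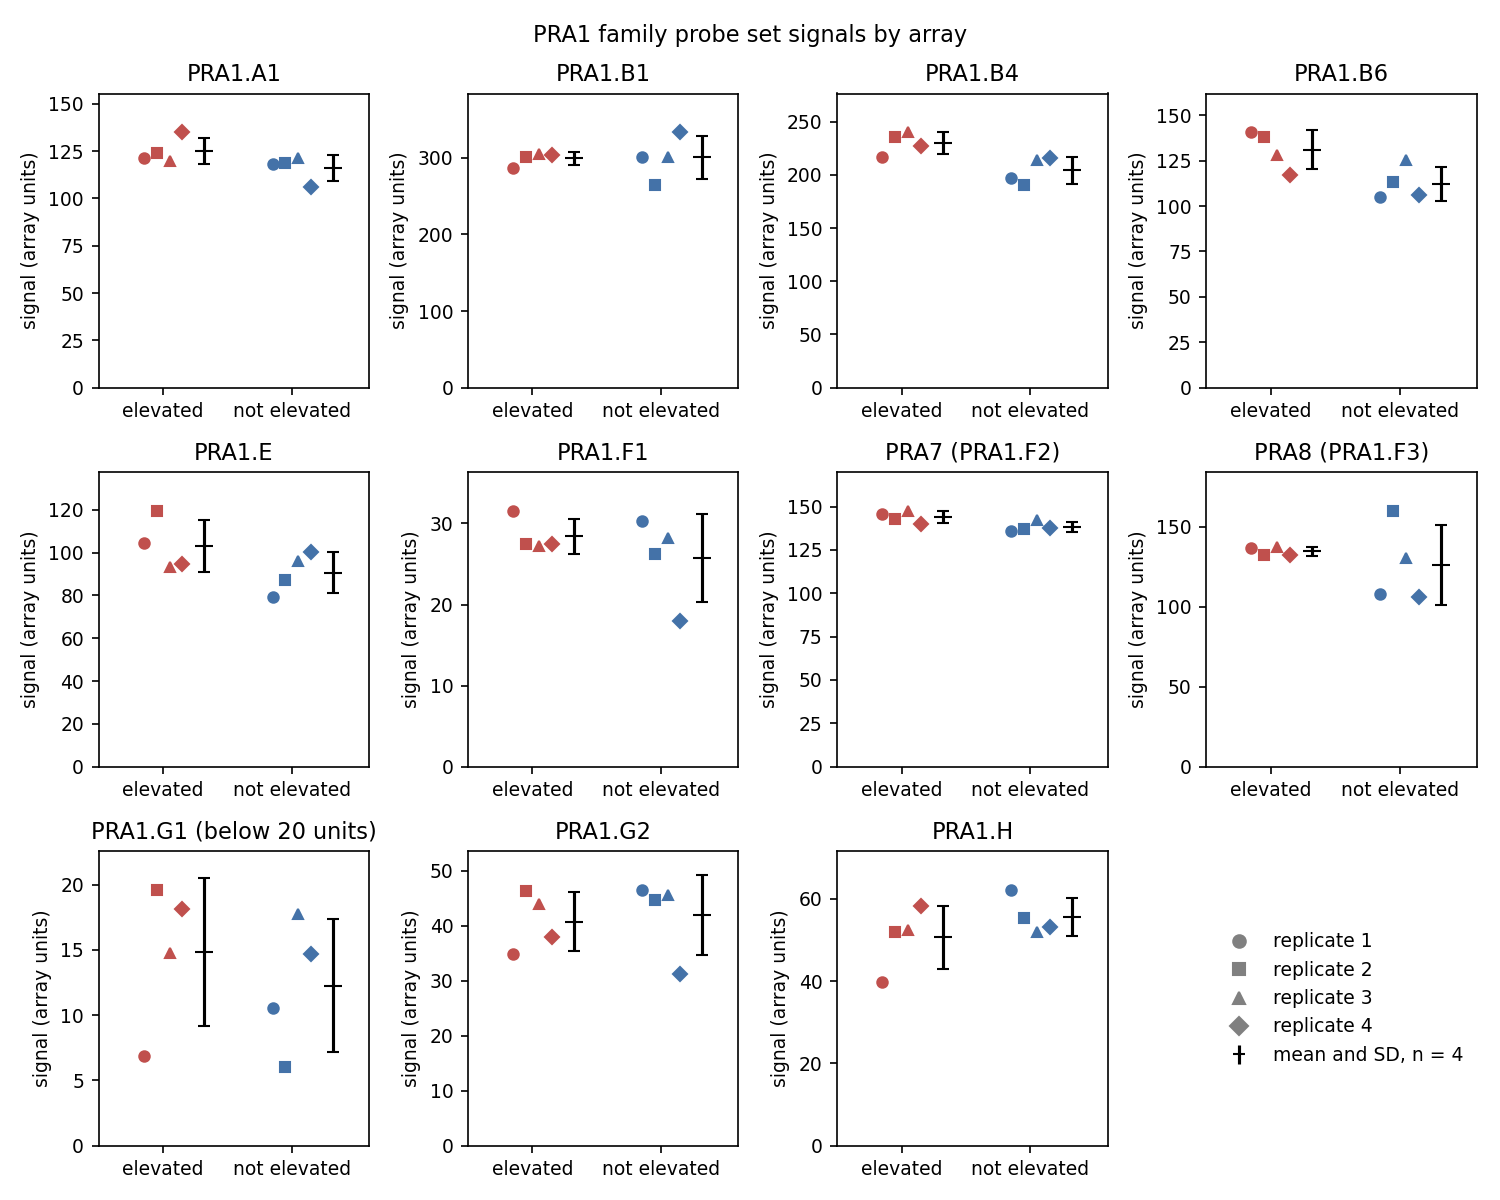
Probe set signal in array units (each vertical axis from 0, its own scale) for the 8 members, PRA7, PRA8 and PRA1.G1, with elevated arrays in red on the left and not-elevated arrays in blue on the right; marker shapes are replicate numbers and black bars are the mean and SD of 4 arrays. PRA1.B4 is the 1 member whose groups do not overlap, at 216.7 to 240.5 units in elevated arrays against 190.2 to 216.3 units in not-elevated arrays. Of all tested probe sets, 6.11% also had groups that did not overlap.

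Within subclade B, PRA1.B4 and PRA1.B6 had fitted differences above 0 and PRA1.B1 had one close to 0. PRA1.B4 (AT2G38360) read 216.7, 235.5, 240.5 and 227.4 units in elevated replicates 1 to 4, against 197.2, 190.2, 213.7 and 216.3 units in not-elevated replicates 1 to 4. All 4 elevated arrays lay above all 4 not-elevated arrays, although the closest pair of arrays was less than 1 unit apart. It was the 1 member with no overlap, which 6.11% of all tested probe sets also showed. Its log2 difference was 0.16 ± 0.08 (SE), with limma's adjusted p = 0.498. With 1 array left out that difference ran from 0.13 to 0.19, and it was 0.15 without not-elevated replicate 1.

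PRA1.B6 (AT5G07110), the Golgi protein described above, read 140.8, 138.2, 128.1 and 117.1 units in elevated replicates 1 to 4. In not-elevated replicates 1 to 4 it read 104.8, 113.2, 125.2 and 106.1 units. Elevated replicates 1, 2 and 3 lay above every not-elevated array, while elevated replicate 4 lay below not-elevated replicate 3, so the groups overlapped. The means were 131 ± 10.8 and 112 ± 9.35 units (SD, n = 4 each), elevated first. The log2 difference of 0.21 ± 0.09 (SE) was the largest of the family, with limma's unadjusted p = 0.0476 and adjusted p = 0.443. It was 0.18 without not-elevated replicate 1.

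PRA1.B1 (AT3G56110) averaged nearly the same in both groups. It read 286.9, 301.3, 305.2 and 303.7 units in elevated replicates 1 to 4, against 301.5, 264.6, 301.7 and 333.8 units in not-elevated replicates 1 to 4. The lowest and the highest arrays were both not-elevated, and the elevated values all lay between them. The SD was 8.41 units in the elevated group and 28.3 units in the not-elevated group. Its log2 difference was -0.0011 ± 0.09 (SE), and its sign changed with several settings. It was 0.0021 without not-elevated replicate 1.

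The 3 pairs within subclade B are described by their log2 ratio within each array, with no test, because the pairs were chosen after the members' values were seen. The size of such a ratio depends on the probes, so only its difference between the groups is read. PRA1.B4 over PRA1.B1 was -0.37 ± 0.03 in the elevated group and -0.53 ± 0.08 in the not-elevated group (SD, n = 4 each). The difference was 0.17, and the groups did not overlap, as they did not for PRA1.B4 itself. PRA1.B1 alone differed by -0.0011, so this difference largely repeats that of PRA1.B4 and is not a further result. How often ratios of other probe set pairs show no overlap was not computed. With 1 array left out the difference in this ratio ran from 0.14 to 0.19.

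For PRA1.B6 over PRA1.B1 the ratio was -1.14 ± 0.14 in the elevated group and -1.34 ± 0.19 in the not-elevated group. The groups overlapped, and the difference of 0.21 was 0.13 without not-elevated replicate 4 and 0.12 without both replicate 1 arrays. PRA1.B6 over PRA1.B4 averaged -0.77 ± 0.14 in the elevated group and -0.81 ± 0.12 in the not-elevated group, a difference of 0.041 with overlapping groups. That last difference was -0.019 without elevated replicate 1.

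**Figure D2:**
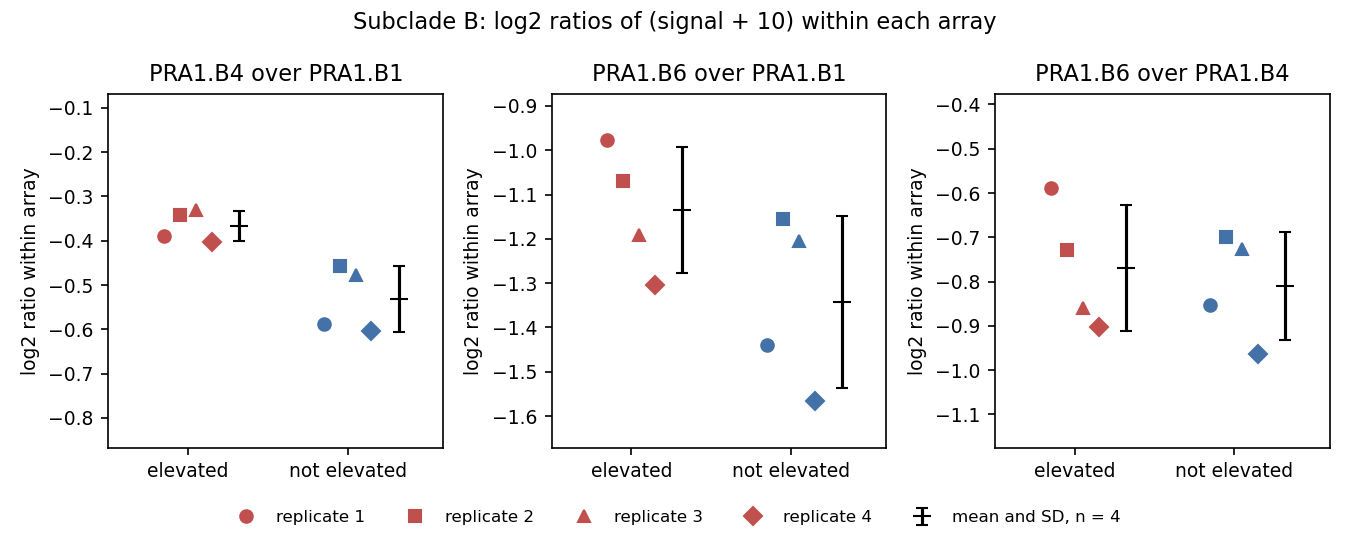
Log2 ratio of (signal + 10) between 2 subclade B genes within each array, elevated arrays in red on the left and not-elevated arrays in blue on the right, with the mean and SD of 4 arrays in black; all panels span the same range. For PRA1.B4 over PRA1.B1 the elevated arrays lie between -0.40 and -0.33 and the not-elevated arrays between -0.60 and -0.46, while the groups overlap in the other 2 panels.

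PRA1.A1 (AT5G02040), of subclade A, varied little. It read 121.2, 124.0, 119.6 and 135.1 units in elevated replicates 1 to 4, against 118.1, 118.5, 121.3 and 106.0 units in not-elevated replicates 1 to 4. Apart from replicate 4 of each group, the highest and the lowest arrays, the values lay between 118.1 and 124.0 units. The log2 difference was 0.10 ± 0.09 (SE), with limma's adjusted p = 0.729. The difference was 0.11 without not-elevated replicate 1 and 0.061 without not-elevated replicate 4.

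PRA1.E (AT1G08770) read 104.3, 119.5, 93.2 and 94.5 units in elevated replicates 1 to 4, against 79.2, 87.1, 96.3 and 100.3 units in not-elevated replicates 1 to 4. Elevated replicates 1 and 2 lay above the not-elevated range, and elevated replicates 3 and 4 lay inside it. Its log2 difference of 0.16 ± 0.11 (SE) nearly equalled that of PRA1.B4, with a wider error and limma's adjusted p = 0.613. It was 0.11 without not-elevated replicate 1 and 0.095 without elevated replicate 2.

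Subclade F was read by PRA1.F1 and by its relatives PRA7 and PRA8, and all 3 had fitted differences above 0 that did not pass. PRA1.F1 (AT1G17700) was dim, at 31.6, 27.4, 27.2 and 27.4 units in elevated replicates 1 to 4, against 30.4, 26.3, 28.2 and 17.9 units in not-elevated replicates 1 to 4. The groups overlapped, and not-elevated replicate 4 was the 1 array under 26 units. The log2 difference was 0.12 ± 0.15 (SE), with limma's adjusted p = 0.826. It was 0.18 without not-elevated replicate 1 and 0.0036 without not-elevated replicate 4.

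PRA7 (AT1G55190, synonym PRA1.F2) read 145.8, 142.7, 147.6 and 139.7 units in elevated replicates 1 to 4. It read 135.7, 137.0, 142.3 and 137.6 units in not-elevated replicates 1 to 4. Elevated replicates 1, 2 and 3 lay above the not-elevated range and elevated replicate 4 inside it. The log2 difference was 0.06 ± 0.08 (SE), with limma's adjusted p = 0.854, and 0.047 without not-elevated replicate 1.

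PRA8 (AT3G13720, synonym PRA1.F3) read 137.1, 132.3, 137.3 and 132.7 units in elevated replicates 1 to 4. In not-elevated replicates 1 to 4 it read 107.9, 160.1, 130.9 and 106.1 units. The not-elevated arrays lay on both sides of the elevated ones, with SDs of 2.71 units in the elevated group and 25.2 units in the not-elevated group. The log2 difference was 0.11 ± 0.12 (SE), with limma's adjusted p = 0.799. Leaving out a single not-elevated array gave 0.042 for replicate 1, 0.22 for replicate 2 and 0.035 for replicate 4.

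The members of subclades G and H had fitted differences below 0. PRA1.G2 (AT5G56230) read 34.9, 46.4, 44.0 and 37.9 units in elevated replicates 1 to 4, against 46.6, 44.7, 45.6 and 31.2 units in not-elevated replicates 1 to 4. The elevated arrays lay within the not-elevated range, and the log2 difference was -0.029 ± 0.13 (SE), with limma's adjusted p = 0.963. Its sign changed when elevated replicate 1, not-elevated replicate 1 or not-elevated replicate 3 was left out, and the difference was 0.015 without not-elevated replicate 1.

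PRA1.G1 (AT1G55640), below the signal limit, read 6.91, 19.6, 14.8 and 18.2 units in elevated replicates 1 to 4, against 10.6, 6.01, 17.8 and 14.7 units in not-elevated replicates 1 to 4. Detection calls were not used here, so signals this low may or may not reflect transcript. When all probe sets were tested its log2 difference was 0.16 ± 0.22 (SE), with limma's adjusted p = 0.890.

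PRA1.H (AT4G27540) read 39.9, 52.0, 52.4 and 58.3 units in elevated replicates 1 to 4, against 62.2, 55.4, 51.9 and 53.1 units in not-elevated replicates 1 to 4. Elevated replicate 1 was the lowest array and not-elevated replicate 1 the highest. The log2 difference was -0.12 ± 0.12 (SE), with limma's adjusted p = 0.768. Without both replicate 1 arrays it was 0.016, without not-elevated replicate 1 alone -0.075 and without elevated replicate 1 alone -0.030.

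**Figure D3:**
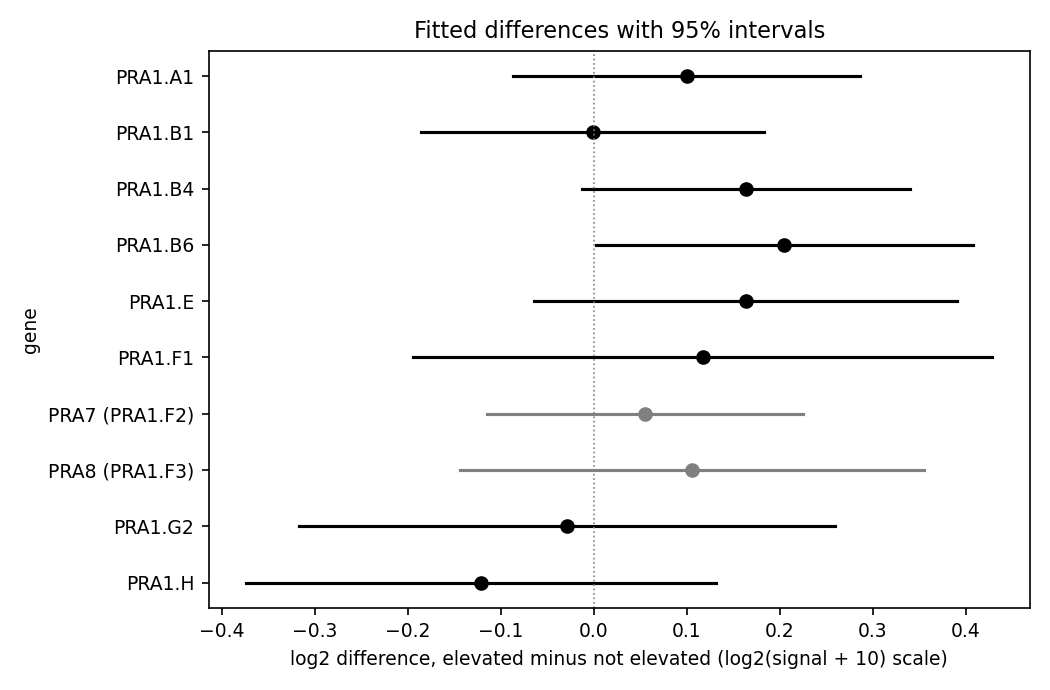
Fitted log2 difference, elevated minus not elevated on the log2(signal + 10) scale, with its 95% interval from limma, for the 8 members in black and for PRA7 and PRA8 in grey. The interval of PRA1.B6, from 0.0025 to 0.41, is the 1 that does not reach 0, and after adjustment over all probe sets no gene passed.

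The intervals show how large a difference in each member the spread among these arrays leaves possible. Part or all of that spread may be technical, so they need not bound a difference between plants. On the same scale the 95% interval of the fold ran from 0.991 to 1.27 for PRA1.B4 and from 1.002 to 1.33 for PRA1.B6. For PRA1.B1 it ran from 0.879 to 1.14, and for PRA1.A1 from 0.942 to 1.22. The widest among the members belonged to the dim genes, 0.874 to 1.35 for PRA1.F1 and 0.803 to 1.20 for PRA1.G2. The intervals are not adjusted for the number of probe sets, and the pseudocount of 10 makes a fold of a dim gene smaller than its signal ratio. For scale, BCAT4, an aminotransferase gene of glucosinolate synthesis, had the smallest p of the called probe sets that name 1 gene. It read 76.8 ± 11.2 units in the elevated group and 34.1 ± 6.25 units in the not-elevated group (SD, n = 4 each), a log2 difference of 0.98.

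The spread between replicate arrays was low for most members. The SD within groups on the log2(signal + 10) scale had a median of 0.13 over the 8 members and 0.16 over all tested probe sets. The median SD of all tested probe sets fell from 0.206 at 20 to 50 units to 0.126 at 400 to 800 units. It was 0.131 from 800 units up. Each gene was therefore set beside the probe sets in its own range of mean signal. Each of the 8 members lay below the median of its range, from the 6.54th percentile for PRA1.A1 to the 43.5th for PRA1.H. PRA1.B4 lay at the 6.88th percentile of 1816 probe sets between 200 and 400 units.

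PRA7 had an SD of 0.030, the lowest of the 3334 probe sets between 100 and 200 units, whose median was 0.14. PRA8 lay at the 72.9th percentile of the same range. These percentiles are a description of 8 arrays, with no test.

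**Figure D4:**
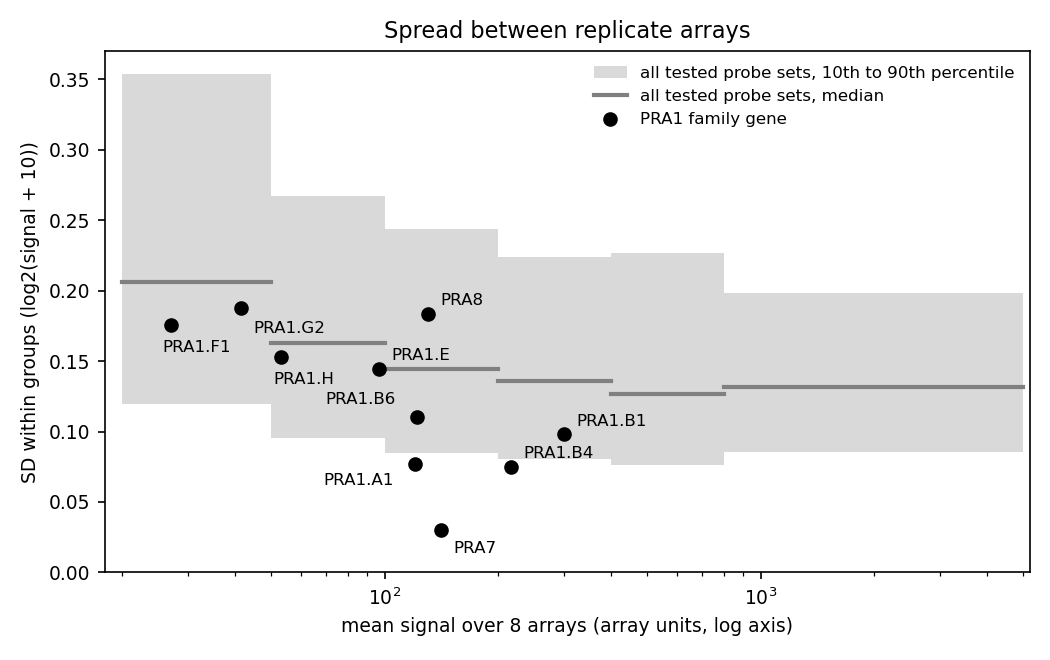
SD within groups on the log2(signal + 10) scale against the mean signal over 8 arrays (log axis) for the 8 members, PRA7 and PRA8 (black points), with the 10th to 90th percentile (grey bands) and median (grey lines) of all tested probe sets in 6 ranges of signal. The members lie below the median of their range, PRA7 lies far below the band at 0.030, and PRA8 lies above the median at 0.18.

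Signals of different probe sets depend on their probes, so the levels are given by subclade without an order between genes. Mean signals over the 8 arrays were 120.5 units in subclade A (PRA1.A1). They were 300 (PRA1.B1), 217 (PRA1.B4) and 122 units (PRA1.B6) in subclade B and 96.8 units in subclade E (PRA1.E). In subclade F they were 27.0 (PRA1.F1), 141 (PRA7) and 131 units (PRA8). Subclade G read 41.4 (PRA1.G2) and 13.6 units (PRA1.G1), and subclade H 53.1 units (PRA1.H). Among the 4 members with a mean of at least 100 units, from subclades A and B, the median log2 difference was 0.13. It was 0.0018 over all tested probe sets that bright. Of these 4 members, 3 were above 0 and 1 below. Among the 4 dimmer ones the median was 0.044, with 2 above 0 and 2 below. A link to brightness or subclade was not tested.

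Across arrays the members did not all move in the same direction, and how closely they varied together was not measured. Each gene was centred on its own mean over the 8 arrays, and the median over the 8 members was then taken per array. It was 0.0054, 0.078, 0.020 and 0.022 on the log2(signal + 10) scale in elevated replicates 1 to 4. In not-elevated replicates 1 to 4 it was -0.0070, -0.055, 0.011 and -0.085. The elevated arrays were all above 0, but not-elevated replicate 3 lay above elevated replicate 1, so the groups overlapped. PRA1.B6 and PRA1.F1 were highest in elevated replicate 1, where PRA1.H was lowest.

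The other membrane trafficking genes that were matched by name did not pass either. Of 9 lists of trafficking genes, 6 had a gene with its own probe set. Of their 28 genes, 23 were tested, 10 with a fitted difference above 0 and 13 below. With limma 0 of the 23 passed an adjusted p of 0.05 (smallest 0.490), and 0 had an unadjusted p under 0.05. Their median log2 difference was -0.018, and 2 of the 23 had groups that did not overlap (background 6.11%). GDP dissociation inhibitors, reticulon-like proteins and the YIP family had no gene with a probe set of its own in the tables used.

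Only 2 Rab GTPase genes were matched by name and tested. Both had fitted differences below 0, where 50.4% of all tested probe sets were above 0. RAB6A (AT2G44610), a Rab of the Golgi, read 185 ± 15.0 units in the elevated group and 212 ± 17.4 units in the not-elevated group (SD, n = 4 each). Its log2 difference was -0.18 (limma's adjusted p = 0.490). ARA6 (AT3G54840), a plant-specific Rab of endosomes, had a log2 difference of -0.08 (limma's adjusted p = 0.787).

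In the coat and ARF groups, AT3G63460 (synonym SEC31B), an outer coat subunit of vesicles that leave the endoplasmic reticulum, differed by 0.08 (limma's adjusted p = 0.797). ARLA1A, an ARF-like GTPase gene, read 153 ± 7.05 units in the elevated group and 167 ± 5.42 units in the not-elevated group (SD, n = 4 each). Its groups did not overlap, and its log2 difference was -0.12 (limma's adjusted p = 0.641). ARLA1D, of the same family, differed by 0.13 (limma's adjusted p = 0.769).

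Among genes of fusion, lipid processing and sorting, SEC22, a SNARE between the endoplasmic reticulum and the Golgi, differed by -0.07 and the syntaxin gene ATSYP24 by 0.11 (limma's adjusted p = 0.806 and 0.866). ATSTE24, a protease that trims prenylated proteins, differed by -0.018 (limma's adjusted p = 0.960). Of 13 sorting genes tested, 7 were above 0 and 6 below. AT1G09330 (synonym ECHIDNA), a trans-Golgi protein gene, read 282 ± 28.3 units in the elevated group and 251 ± 6.90 units in the not-elevated group (SD, n = 4 each), with no overlap. Its log2 difference was 0.16 (limma's adjusted p = 0.541). VPS60.1, of the ESCRT group that sorts membrane proteins to the vacuole, differed by 0.18 (limma's adjusted p = 0.596).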

How the data were processed

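Biotin-labelled total RNA was read on 8 ATH1 arrays. The authors deposited 1 linear intensity value per probe set and array. MAS5 is named, without a version, per the submitters' processing notes. Each array had a mean of 100 units after trimming 2% at each end, and such scaling hides a change shared by all transcripts. Groups rest on the labels' treatment text. Each PRA1 gene named had 1 probe set, so no choice among probe sets was needed.

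Leaving out 64 controls gave 22746 probe sets, of which 15296 with a mean of at least 20 units were tested as log2(signal + 10). The test was limma 3.58.1 in R 4.3.3 (lmFit, eBayes with trend, Benjamini-Hochberg at 0.05, two-sided). Its code was run on simulated arrays with independent noise per probe set, which cannot show how the test behaves on these arrays. Probe sets were named by the platform's gene table, with symbols updated from RefSeq (TAIR10.1). No coordinates are given, since no build is named in the files. Trafficking lists were matched by symbol or synonym, and RBE, a zinc finger factor whose synonym begins like Rab, was left out. From each list the 2 tested genes with the smallest p are named, with every PRA1 gene and the called gene with the smallest p. Members and lists were chosen with earlier results of these data known. Alternatives were other scaling, pseudocounts, filters, variance models, the replicate block and arrays left out. The number of arrays limits the precision.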

Additional observations from a re-analysis of the deposited data

Results flagged for a closer look

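Dixon's test was applied to the 4 arrays of each group for the 8 members, PRA7 and PRA8, 20 groups in all, and picked out 2, where chance flags about 1 in 20 groups. PRA1.F1 read 31.55 units in elevated replicate 1, against 27.16 to 27.45 units in the other elevated arrays. PRA1.G2 read 31.23 units in not-elevated replicate 4, against 44.74 to 46.56 units in the other not-elevated arrays.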

How the results depend on the processing

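No member and no trafficking gene passed the limma threshold under any of the 18 alternatives. The smallest limma adjusted p of a member was 0.386, for PRA1.B6 with the filter at a mean of 50 units. That filter left 6 members to test, without PRA1.F1 and PRA1.G2. The median log2 difference of the members stayed above 0, from 0.055 to 0.14 with 1 array left out, and was 0.065 with a pseudocount of 50. PRA1.A1, PRA1.B4, PRA1.B6, PRA1.E, PRA1.F1, PRA7 and PRA8 stayed above 0 in every alternative that tested them. The replicate block, the filters and the fit without the trend cannot change a gene's fitted difference, so they do not bear on its sign. PRA1.B1 changed sign with quantile normalization (0.0058), common median scaling (0.0023) and without both replicate 1 arrays (0.022), and ran from -0.058 to 0.050 with 1 array left out. PRA1.G2 changed sign with array weights (0.015) and without both replicate 1 arrays (0.073), and ran from -0.14 to 0.029. PRA1.H changed sign without both replicate 1 arrays (0.016), as did the ratio PRA1.B6 over PRA1.B4 (-0.033), which ran from -0.019 to 0.085 with 1 array left out, against 0.13 to 0.27 for PRA1.B6 over PRA1.B1. The number of probe sets called, 48, was 30 with quantile normalization, 28 with a pseudocount of 1, 1 with no filter, 9 without the trend, 132 with array weights and 144 without both replicate 1 arrays, and ran from 0 (1395 at an unadjusted p under 0.05) to 131 with 1 array left out. The cause was not tested. Same-numbered arrays did not deviate together (correlations from -0.18 to -0.037), and the replicate block called 50 probe sets and 0 members. No other probe set exists for a member, so that alternative gave no value. The pairs within subclade B and their alternatives were chosen after seeing the data.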
